A study of Homo sapiens with 6 samples.

Results

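Retinoic acid is made from vitamin A in 2 oxidations and acts inside the nucleus, and the genes described here are 10 that make it, break it down, bind it or respond to it as receptors: RDH10, DHRS3, ALDH1A2, CYP26A1, CYP26B1, CRABP1, CRABP2, RARA, RARB and RARG. They were chosen by symbol for these roles, and all 10 had a row among the 40396 genes of the expression table. The cells were of the human embryonic stem cell line H1, differentiated for 3 days toward definitive endoderm (DE), the germ layer that gives rise to gut, liver and pancreas. Both groups grew in DMEM with B27 and Glutamax, received 50 ng/ml activin A throughout, and had 2.5 µM CHIR99021, a GSK3 inhibitor that activates Wnt signaling, for the first 24 h. The control group was given DMSO and the other group 0.5 µM saracatinib (SAR), a small-molecule inhibitor of Src and Abl kinases, from the start to day 3, and each group had 3 libraries of poly(A)-selected RNA. The sources used here do not say whether these came from separate cultures, so p-values measure only the spread between these 6 libraries, which may be technical. B27 is sold with and without vitamin A, and which form was used is not stated. The sample titles name DE cells, while the cell type field gives ESCs.

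Retinol is oxidized to retinal, reversibly, by dehydrogenases such as RDH10, and DHRS3 runs that step backward. Aldehyde dehydrogenases of the ALDH1A family then make retinoic acid irreversibly, and CYP26 enzymes hydroxylate it for removal. Cellular binding proteins carry it, and in the nucleus it binds the receptors RARA, RARB and RARG, which pair with an RXR partner on direct repeats in DNA. In the embryo, retinoic acid patterns the endoderm along its head-to-tail axis, and several of its targets, CYP26A1, RARB and DHRS3 among them, belong to the pathway itself.

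The table gave FPKM, fragment counts divided by gene length and library total, a level that can be compared between genes. Read totals recovered from the steps of the values were 18877964 to 24419937 reads in control and 16681280 to 18389543 with SAR. Control 1 stood apart by listing 33169 genes above 0 FPKM, against 29506 to 30109 in the other 5 libraries, and the low-level results below are given with and without it where they change. Of 12 DE markers, which were all at 1.67 FPKM or more in every library, SOX17, HHEX, FOXA2 and FOXA1 were upregulated and GSC, EOMES, CER1 and GATA4 were downregulated. These were 4 each, beside 3.41% and 1.58% of all tested genes. SOX17 (0.93) and HHEX (0.90) came under a log2 fold change of 1 once the libraries were rescaled by median ratios. By adjusted p alone (limma), KIT was also higher (0.98, adjusted p = 0.00148). CXCR4 (-0.51, adjusted p = 0.00872) and GATA6 (-0.58, adjusted p = 0.0274) were lower. In all, 5 of the 12 were higher and 6 lower, beside 23.7% and 9.55% of all tested genes. The summed level of the 12 was 4187 to 5305 FPKM in control and 2370 to 2398 FPKM with SAR, a difference carried by CER1, since the other 11 summed to 646 to 702 FPKM in control and 678 to 754 FPKM with SAR, with overlap. The summed pluripotency markers were at 456 to 573 and 589 to 624 FPKM, with NANOG downregulated and SOX2 (0.88, adjusted p = 0.0153) and TDGF1 (0.20, adjusted p = 0.0470) higher. The TDGF1 call was lost when rescaled (0.07, adjusted p = 0.415). The summed mesoderm markers were at 65.3 to 69.0 and 42.0 to 54.2 FPKM, and without MIXL1, which was downregulated, at 21.0 to 23.6 FPKM in control and 28.8 to 32.4 FPKM with SAR. Of the 6 of 12 mesoderm markers tested, TBXT was upregulated, TBX6 higher (0.82, adjusted p = 0.00207) and KDR lower (-0.22, adjusted p = 0.0177). Neural markers were at 212 to 226 and 210 to 222 FPKM with 3 of 8 tested. SIX3 was upregulated, but reached the minimum level for the test through its SAR libraries, SOX1 was listed at 0 in all 3 control libraries, and PAX6, outside the test, was at 0.0616 to 0.106 FPKM in control and at 0.00263 to 0.00290 FPKM, 1 read per library, with SAR. Extraembryonic markers were at 18.8 to 25.3 and 15.8 to 30.4 FPKM with 2 of 8 tested and GATA3 upregulated (1.08, and 0.96 when rescaled). The most abundant genes of these lists were CER1, GPC4 and CXCR4 for DE, TDGF1, POU5F1 and DPPA4 for pluripotency, MIXL1, KDR and TBXT for mesoderm, OTX2, NES and SIX3 for neural ectoderm, and APOA1, GATA3 and SOX7 for extraembryonic cells. KIT, GATA6, SOX2, TBX6 and PAX6 were named after their values were seen. The part of these cell type differences in the results below was not tested, and in bulk RNA fewer cells of a type and less RNA per cell cannot be told apart.

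A direct repeat of the receptor half-site with 5 bases between the copies (DR5) is the textbook binding element of the RAR–RXR pair, and the one before RARB is its best-known example. The half-site was taken as AGGTCA or one of 3 variants, which were AGTTCA as the first variant, GGGTCA as the next variant and GGTTCA as the last variant. Any pair of them on either strand was searched in RefSeq promoters of GRCh38.p14, windows of 300 bases from 250 before to 50 after a start site. A DR5 was found in 31 of 35116 windows (0.0883%), and 2 of the 18 windows of 9 of the 10 genes held one. RDH10 had no window. The sequences below are the RARB and CYP26A1 matches, 29 bases each on the plus strand, which is also the strand of both genes, shown because these genes gave opposite changes, with the 17 bases of the repeat in capitals.
RARB: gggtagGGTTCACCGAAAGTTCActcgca
CYP26A1: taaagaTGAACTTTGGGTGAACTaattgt
The first lies at chr3:25428204-25428232, its repeat 53 to 37 bases before an internal start site of RARB and reading in the direction of the gene. The second lies at chr10:93073797-93073825, its repeat 90 to 74 bases before the downstream of the annotated CYP26A1 starts, in a 5′ UTR exon of another transcript. It reads against the direction of the gene, so that its opposite strand is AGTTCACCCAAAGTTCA, with the same second half-site as in RARB. Neither a DR1 (46 windows, 0.131%) nor a DR2 (14 windows, 0.0399%), repeats with 1 and 2 bases between the half-sites, was found in a window of the 10 genes, and none of 82 other listed genes with a window held a DR5. A match is a description of letters in these windows and not evidence of binding in these cells.

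With SAR, RARB was upregulated 2.17-fold, CRABP1, CRABP2 and DHRS3 were higher by smaller factors, and CYP26A1, the most abundant retinoic acid-degrading enzyme in the table, was lower by 36.1%. RDH10, RARA and RARG did not pass the test. ALDH1A2 and CYP26B1 had means under 0.5 FPKM over the 6 libraries and stood outside the main test. The test was limma on log2(FPKM + 0.1) over 16371 genes with Benjamini-Hochberg adjustment. Genes are called upregulated or downregulated at an adjusted p-value under 0.05 with a log2 fold change above 1 or under -1, and higher or lower at an adjusted p-value under 0.05 alone. Of the 8 genes tested, 1 was upregulated (3.41% of all tested genes) and 0 were downregulated (1.58% of all), while 4 were higher (23.7% of all) and 1 was lower (9.55% of all). The median log2 fold change of the 8 was 0.31, beside 0.12 for all tested genes. When the libraries were brought to a common scale with median ratios (rescaled), the median of all tested genes was 0.00 and that of the 8 was 0.19, so changes as deposited stand against a typical gene at 0.12. In 6 of the 10 genes the SAR libraries did not overlap the control libraries, 5 of them above and 1 below, beside 27.7% of all genes without overlap (19.1% above and 8.56% below) and 50.7% of tested genes (35.5% above and 15.2% below).

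**Figure D1:**
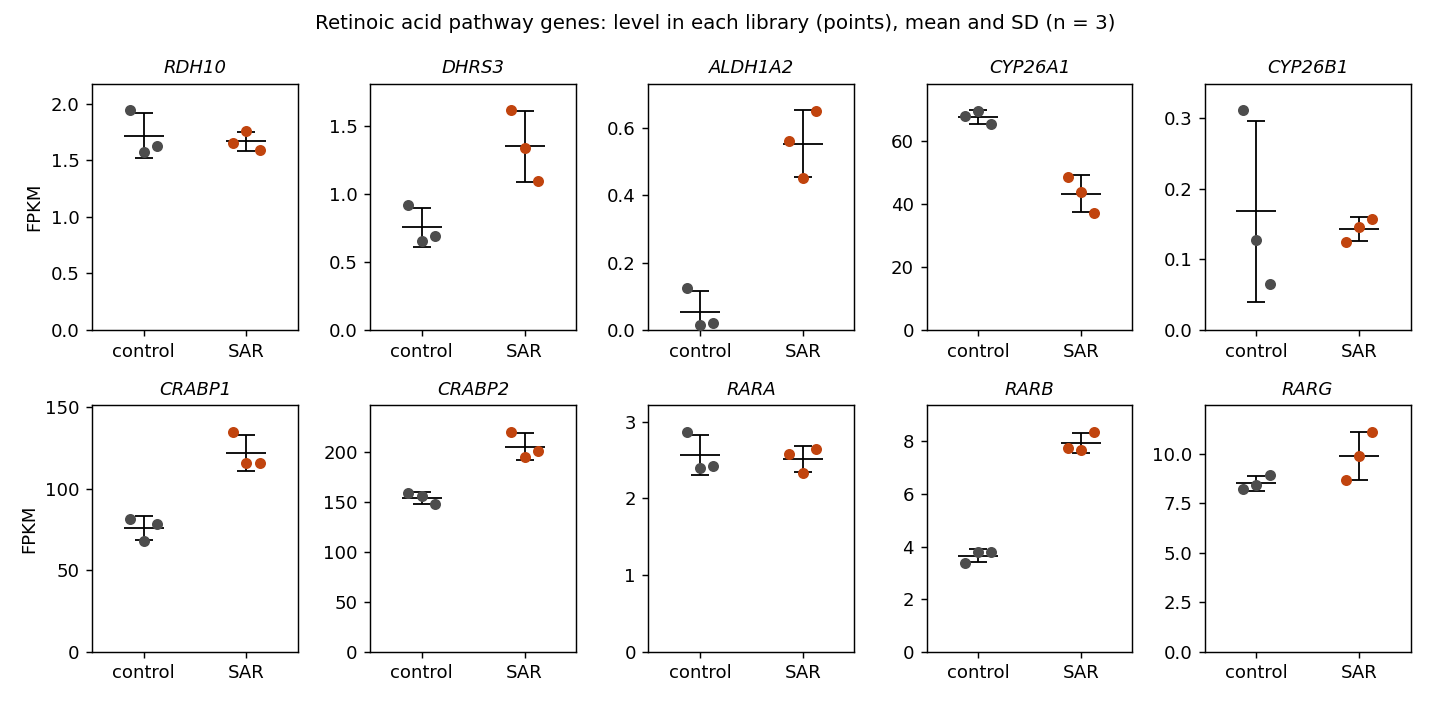
Level of each of the 10 genes in FPKM (vertical axes from 0, scaled per gene) in control and SAR; points are libraries, the long bar is the mean and the error bars are the SD (n = 3). RARB, CRABP1, CRABP2, DHRS3 and ALDH1A2 are higher in every SAR library than in any control library, CYP26A1 is lower, and the groups overlap for RDH10, CYP26B1, RARA and RARG.

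The plot of levels by library shows the separation of RARB, from 3.38 to 3.80 FPKM in control to 7.68 to 8.37 FPKM with SAR, against the overlap of RDH10 and RARA, whose points mix. The genes also differ widely in level. CRABP2, CRABP1 and CYP26A1 ranked 225th, 483rd and 549th of the 40396 genes by mean control FPKM, while RARG ranked 4775th, RARB 8174th, RARA 9622nd, RDH10 11128th, DHRS3 14214th, CYP26B1 21576th and ALDH1A2 29054th. In this control order the library ranges of neighbours were apart except between CRABP1 and CYP26A1 and between CYP26B1 and ALDH1A2. With SAR, CRABP1 stood apart from CYP26A1, ALDH1A2 moved above CYP26B1, and only RDH10 and DHRS3 had overlapping ranges. By rank, RARB moved to 5283rd, CYP26A1 to 892nd and ALDH1A2 to 16199th. CRABP1 and CRABP2 together made up 73.0% ± 0.870 of the FPKM of the 10 genes in control and 82.9% ± 0.702 with SAR (SD, n = 3 each), and CYP26A1 21.5% ± 0.889 and 10.9% ± 1.01.

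The first step from retinol was examined through RDH10 and DHRS3, which catalyze it in opposite directions. RDH10 (ENSG00000121039, chr8:73294612-73325281, plus strand) was at 1.94, 1.57 and 1.63 FPKM in control 1, 2 and 3 and at 1.65, 1.76 and 1.59 FPKM in SAR 1, 2 and 3. Control 1 held the highest value and the groups overlapped. The means were 1.72 ± 0.199 and 1.67 ± 0.0854 FPKM, and the log2 fold change was -0.03 (95% interval -0.30 to 0.23, adjusted p = 0.836), an interval that leaves out changes of the size seen in RARB. Without control 1 the log2 fold change was 0.05 (adjusted p = 0.725).

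DHRS3 (ENSG00000162496, chr1:12567910-12617731, minus strand) was at 0.922, 0.652 and 0.693 FPKM in the control libraries, from 71, 56 and 46 reads, and at 1.62, 1.34 and 1.10 FPKM in the SAR libraries, from 95, 80 and 71 reads. All SAR libraries lay above the control libraries, but the gap of 0.176 FPKM between the groups was smaller than the range within either. DHRS3 rose from 0.756 ± 0.145 to 1.35 ± 0.261 FPKM, with a log2 fold change of 0.76 (SE 0.197, adjusted p = 0.0258). Without control 1 it was 0.90 (adjusted p = 0.0243). The call was lost in 6 of 15 alternatives, among them the fits without control 2 (adjusted p = 0.0786), control 3 (0.0824), SAR 1 (0.0807) or SAR 2 (0.0761). The ratio of DHRS3 to RDH10 FPKM was 0.474, 0.414 and 0.425 in control and 0.980, 0.763 and 0.690 with SAR, without overlap (exact two-sided permutation p = 0.1, the lowest that 3 libraries against 3 allow). With RDH10 nearly level, this ratio restates the DHRS3 difference and is no further support.

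ALDH1A2, which makes retinoic acid from retinal in early embryos, was near the floor of detection in control. The gene (ENSG00000128918, chr15:57953424-58497866, minus strand) was at 0.124, 0.0151 and 0.0196 FPKM in the control libraries, from 22, 3 and 3 reads. In the SAR libraries it was at 0.561, 0.450 and 0.649 FPKM, from 76, 62 and 97 reads. Every SAR library lay above every control library, and control 1 held most of the control reads. Summed reads per total gave a ratio of 10.5 (exact binomial 95% interval 7.09 to 16.2), and of 32.6 (14.8 to 89.7) without control 1, intervals that cover counting error only. ALDH1A2 fell under the minimum mean of the main test. In the fit without that minimum its log2 fold change was 2.16 (SE 0.368, adjusted p = 0.0168), where 1.56% of the 40396 genes were upregulated and 6.75% higher. With median-ratio rescaling as well it was 2.08 (adjusted p = 0.0210), and without control 1 it was 2.47 (adjusted p = 0.0144). Leaving out control 2, control 3, SAR 1 or SAR 2 gave 1.99, 2.01, 2.14 and 2.27 with adjusted p-values of 0.0600, 0.0703, 0.0605 and 0.0537, so the call held without control 1 or SAR 3 (2.05, adjusted p = 0.0486) but not without each of these 4 libraries.

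The other ALDH1A enzymes were more abundant. ALDH1A3 was at 1.40, 1.49 and 1.73 FPKM in control and at 1.37 to 1.52 FPKM with SAR, and ALDH1A1 was at 0.659, 0.260 and 0.373 and at 0.675, 0.561 and 0.689 FPKM. Both overlapped between groups, with log2 fold changes of -0.07 (adjusted p = 0.686) and 0.55 (adjusted p = 0.231). The overlap of ALDH1A1 lay in control 1, and without that library its log2 fold change was 0.84 (adjusted p = 0.0735). ALDH1A2 thus made up 5.65%, 0.857% and 0.922% of the ALDH1A sum in the control libraries and 20.4%, 17.9% and 24.0% in the SAR libraries (exact permutation p = 0.1). Since ALDH1A2 alone separated the groups, its share restates that difference and is no further support. The ALDH1A3 share was 76.7% ± 10.9 in control and 55.1% ± 4.65 with SAR. ALDH1A1 and ALDH1A3 were named after their values were seen.

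CYP26A1 was by far the most abundant of the degrading enzymes. The gene (ENSG00000095596, chr10:93073475-93077890, plus strand) was at 67.9, 69.6 and 65.3 FPKM in the control libraries, from 4406, 5037 and 3652 reads, and at 48.6, 43.8 and 37.0 FPKM in the SAR libraries, from 2405, 2201 and 2017 reads. All 3 SAR libraries lay below the control libraries, by a gap of 16.6 FPKM against a range of 4.32 FPKM within control and 11.6 FPKM within SAR. Its mean was 67.6 ± 2.18 FPKM in control and 43.2 ± 5.85 FPKM with SAR, and CYP26A1 was lower with a log2 fold change of -0.65 (SE 0.0991, 95% interval -0.89 to -0.42, adjusted p = 0.00434). Over all 15 alternatives it lay between -0.78 and -0.55 with adjusted p-values of 0.00028 to 0.0185, and it stayed above the -1 that a downregulated gene needs. AL358613.3 shares 25.2% of the exon bases of CYP26A1 on the same strand and has no row in the table. How reads in the shared bases were assigned is not known.

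CYP26B1, the second degrading enzyme (ENSG00000003137, chr2:72129238-72148038, minus strand), was at 0.311, 0.127 and 0.0657 FPKM in control and at 0.124, 0.146 and 0.157 FPKM with SAR. These values rest on 33, 15 and 6 reads and on 10, 12 and 14 reads, and the SAR libraries lay within the control range. Summed reads gave a ratio of 0.836 (exact binomial 95% interval 0.532 to 1.30), and 1.43 (0.811 to 2.57) without control 1, so a difference was not detectable at this depth. Without the minimum mean the log2 fold change was -0.04 (adjusted p = 0.961), with 0.32 (0.563) and 0.02 (0.987) when control 1 or SAR 1 was left out. CYP26C1, named after its values were seen, was at 0.0242 to 0.313 FPKM over the 6 libraries (log2 fold change 0.02 without the minimum mean, adjusted p = 0.987, and 0.43 without control 1, adjusted p = 0.559). Together the 3 enzymes summed to 67.9 ± 2.31 FPKM in control and 43.4 ± 5.80 FPKM with SAR, and CYP26A1 held 99.1% to 99.9% of that sum in every library.

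Of the binding proteins, CRABP2 delivers retinoic acid to nuclear receptors, and CRABP1 is linked to its retention and breakdown in the cytoplasm. CRABP1 (ENSG00000166426, chr15:78340324-78348230, plus strand) was at 81.6, 67.7 and 78.5 FPKM in the control libraries and at 135, 115 and 116 FPKM in the SAR libraries. The groups did not overlap. Its mean was 76.0 ± 7.33 FPKM in control and 122 ± 11.1 FPKM with SAR, which gave a log2 fold change of 0.68 (SE 0.0946, adjusted p = 0.00325), and of 0.56 after rescaling (adjusted p = 0.00548). AC011270.2 lies opposite 47.2% of its exon bases and was listed at 0.0482 to 0.128 FPKM in all 6 libraries.

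CRABP2 (ENSG00000143320, chr1:156699606-156705816, minus strand), with the highest FPKM of the 10 genes in every library, was at 159, 155 and 147 FPKM in control and at 220.0, 195 and 201 FPKM with SAR. Every SAR library was again above every control library. The means were 154 ± 5.87 and 205 ± 13.2 FPKM, and CRABP2 rose with a log2 fold change of 0.41 (SE 0.0648, adjusted p = 0.00485), and of 0.29 after rescaling (adjusted p = 0.0186). The sum of both carriers was 229.9 ± 9.39 FPKM in control and 327 ± 24.2 FPKM with SAR. Set against the degrading enzyme, that sum was 3.55, 3.20 and 3.46 times the CYP26A1 level in the control libraries. In the SAR libraries it was 7.30, 7.08 and 8.55 times that level. The carriers and CYP26A1 each separated the groups already, so this ratio had to separate them too and is no further support. CRABP1 took 33.0% ± 2.34 of the sum in control and 37.3% ± 0.712 with SAR.

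**Figure D2:**
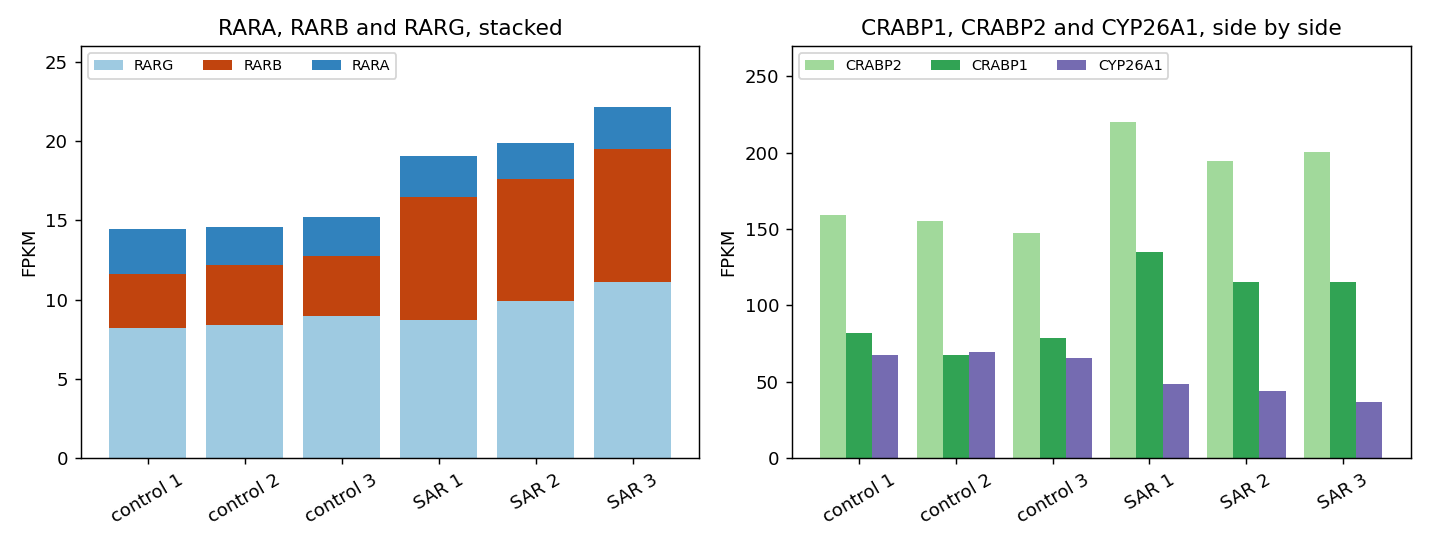
Left, FPKM of RARG, RARB and RARA stacked for each library; right, FPKM of CRABP2, CRABP1 and CYP26A1 side by side for each library. The receptor total is 14.5 to 15.2 FPKM in control and 19.0 to 22.1 FPKM with SAR, with the RARB segment at 3.38 to 3.80 and 7.68 to 8.37 FPKM. CYP26A1 is below both carriers in every library except control 2, where it is above CRABP1.

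RARB was the member with the smallest adjusted p-value. The gene (ENSG00000077092, chr3:25174332-25597932, plus strand), whose internal promoter holds the repeat printed above, was at 3.38, 3.79 and 3.80 FPKM in the control libraries, from 274, 342 and 265 reads. In the SAR libraries it was at 7.77, 7.68 and 8.37 FPKM, from 479, 481 and 569 reads. A gap of 3.88 FPKM parted the groups, whose own ranges were 0.414 FPKM in control and 0.691 FPKM with SAR. RARB rose from 3.66 ± 0.236 to 7.94 ± 0.376 FPKM, with a log2 fold change of 1.10 (SE 0.0738, 95% interval 0.92 to 1.27, adjusted p = 0.000356). Its adjusted p-value stayed at 0.00314 or lower in all 15 alternatives, but the fold change crossed 1 in some of them and was 0.98 after rescaling and 0.94 with a pseudocount of 1. Gene-level FPKM do not separate transcripts from the internal start and those from the upstream starts. TOP2B, at 56.5 to 63.4 FPKM over the 6 libraries, lies opposite 0.757% of the RARB exon bases.

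RARA (ENSG00000131759, chr17:40309192-40357643, plus strand) was at 2.87, 2.40 and 2.42 FPKM in control and at 2.58, 2.33 and 2.64 FPKM with SAR. The SAR libraries spread from below to within the control range. Its means of 2.56 ± 0.264 and 2.51 ± 0.165 FPKM gave a log2 fold change of -0.02 (95% interval -0.26 to 0.21, adjusted p = 0.867). Without control 1 it was 0.06 (adjusted p = 0.682). Opposite 17.9% of its exon bases lie AC080112.3 and RARA-AS1, the latter at 0.182 to 0.561 FPKM.

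RARG (ENSG00000172819, chr12:53210567-53232980, minus strand), the receptor with the highest level in both groups, was at 8.23, 8.41 and 8.96 FPKM in control and at 8.70, 9.90 and 11.1 FPKM with SAR. SAR 1 lay within the control range and the other SAR libraries above it. The means were 8.53 ± 0.380 and 9.91 ± 1.21 FPKM, with a log2 fold change of 0.21 (95% interval -0.02 to 0.43, adjusted p = 0.135) and of 0.09 after rescaling (adjusted p = 0.528). Without SAR 1 the log2 fold change was 0.30 (adjusted p = 0.0440). The 3 receptors summed to 14.8 ± 0.374 FPKM in control and 20.4 ± 1.59 FPKM with SAR. Within that sum the RARB share was 23.4%, 25.9% and 25.0% in the control libraries and 40.8%, 38.6% and 37.8% in the SAR libraries (exact permutation p = 0.1). RARG held 57.8% ± 1.11 and 48.6% ± 2.51, and RARA 17.4% ± 2.10 and 12.4% ± 1.01. RARB alone separated the groups already, so its share had to separate them too and is no further support.

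**Figure D3:**
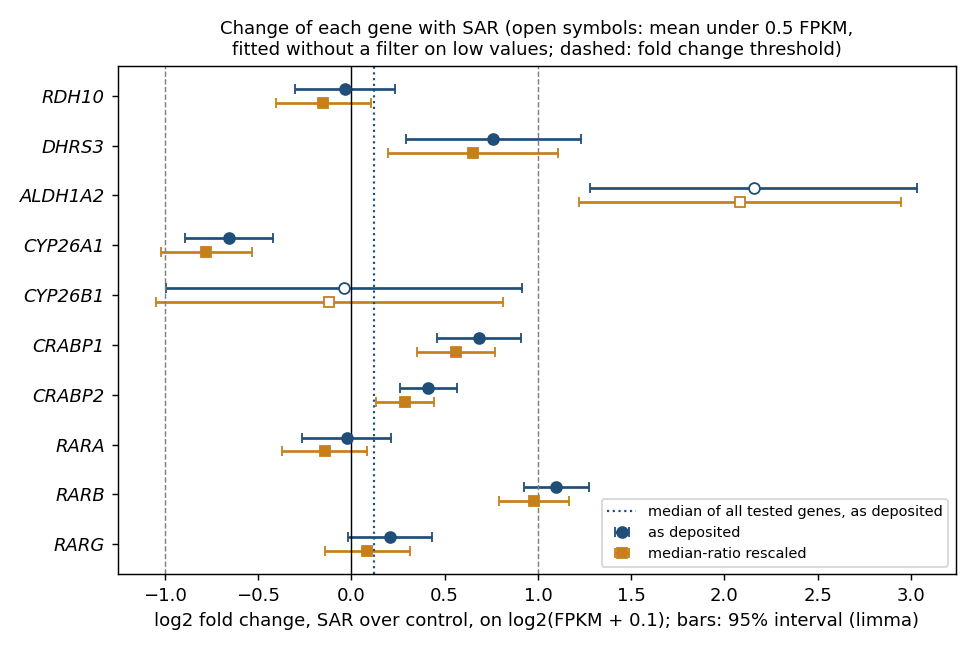
Log2 fold change of each gene, SAR over control, on log2(FPKM + 0.1), with 95% intervals from limma; circles are FPKM as deposited, squares the same after median-ratio rescaling, and open symbols the genes fitted without a minimum mean. RARB lies at 1.10 and 0.98, on either side of the dashed threshold, CYP26A1 at -0.65 and -0.78, and the interval of CYP26B1 reaches from -0.99 to 0.91 as deposited.

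Rescaling moved each of the 10 genes downward by a similar amount, as the plot of fold changes shows, so the upward calls of DHRS3 (0.65, adjusted p = 0.0434), CRABP1, CRABP2 and RARB by adjusted p were kept and that of CYP26A1 became more negative (-0.78, adjusted p = 0.00294). The genes whose pattern was most like RARB, by Pearson's r of log2(FPKM + 0.1) over the 6 libraries, were OLFML2A, PTPN13 and MOBP. OLFML2A (r = 0.999) was at 6.15, 6.97 and 6.56 FPKM in control and 12.8 to 13.9 FPKM with SAR. PTPN13 (r = 0.999), a tyrosine phosphatase, was at 16.4 ± 1.43 and 32.4 ± 1.13 FPKM, and MOBP (r = 0.998) at 3.20 ± 0.394 and 9.97 ± 1.07 FPKM. The points are 2 groups of 3 libraries, and 1062 of the 12657 genes compared had an r above 0.95 with RARB.

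The wider pathway was followed through a list of 46 further genes. Of these, 27 reached the minimum mean, 0 were upregulated or downregulated, 8 were higher (23.7% of all tested genes), 1 was lower (9.55% of all) and 18 passed neither way, with a median log2 fold change of 0.12, as in all tested genes. After rescaling, 6 were higher (13.8% of all) and 2 lower (15.5% of all), with a median of 0.01. The other 19 stayed at or under 0.595 FPKM in every library.

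Among 27 enzymes that handle retinol, retinal or retinyl esters, 12 were tested and 2 were higher, beside 23.7% of all tested genes. The most abundant were ADH5 at 74.1 ± 0.932 FPKM in control and 73.7 ± 3.48 FPKM with SAR, RDH11, a retinal reductase, at 19.3 ± 0.862 and 18.2 ± 0.967 FPKM, and RETSAT, a retinol saturase, at 11.8 ± 0.420 and 10.2 ± 1.44 FPKM. None of these 3 passed the test as deposited (adjusted p = 0.914, 0.327 and 0.127), and after rescaling RETSAT was lower (log2 fold change -0.35, adjusted p = 0.0437). DHRS11 (0.36, adjusted p = 0.0128) and DGAT1 (0.33, adjusted p = 0.0166), an acyltransferase that can also esterify retinol, were the higher genes, and DGAT1 did not pass after rescaling (adjusted p = 0.0711). LRAT, which stores retinol as esters, was at 1.00 ± 0.0464 and 0.943 ± 0.0697 FPKM (adjusted p = 0.662). DHRS11, DGAT1 and LRAT were named after their values were seen.

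Retinoid uptake and carrier genes numbered 9, of which 5 were tested and 3 were higher, beside 23.7% of all tested genes and, after rescaling, 3 again beside 13.8%. STRA6, the membrane receptor that takes up retinol from its plasma carrier, was at 2.79, 2.98 and 2.67 FPKM in control and at 4.57, 4.97 and 5.37 FPKM with SAR. Its log2 fold change was 0.80 (SE 0.0852, adjusted p = 0.00144). RBP7, a cellular retinol-binding protein, named after its values were seen, rose from 2.16 ± 0.133 to 4.16 ± 0.390 FPKM (0.91, adjusted p = 0.00128). STRA6 and RBP7 were without overlap and passed after rescaling (adjusted p = 0.00279 and 0.00223). FABP5, which can carry retinoic acid to PPARD, had the highest level of this list at 64.6 ± 6.84 and 77.4 ± 12.7 FPKM and did not pass (adjusted p = 0.170).

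Of 10 partner receptors and coregulators, all tested, 3 were higher and 1 lower, beside 23.7% and 9.55% of all tested genes. RXRB, a partner of the RARs, was at 7.57, 7.89 and 7.63 FPKM in control and 8.61, 9.06 and 10.8 FPKM with SAR (log2 fold change 0.29, adjusted p = 0.0447), a call lost after rescaling (adjusted p = 0.198). The coactivator NCOA3 was at 7.36 ± 0.498 and 6.97 ± 1.03 FPKM and did not pass the test (adjusted p = 0.593). The next genes were named after their values were seen. RXRA rose from 3.21 ± 0.220 to 4.74 ± 0.182 FPKM (0.55, adjusted p = 0.00326) and NRIP1, a corepressor recruited by liganded receptors, from 1.67 ± 0.0909 to 2.82 ± 0.280 FPKM (0.72, adjusted p = 0.00345). NCOA1 fell from 3.57 ± 0.245 to 2.85 ± 0.144 FPKM (-0.31, adjusted p = 0.0272). The RXR sum was 12.3 ± 0.196 FPKM in control and 15.8 ± 1.43 FPKM with SAR, beside 14.8 and 20.4 FPKM for the RARs.

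**Figure D4:**
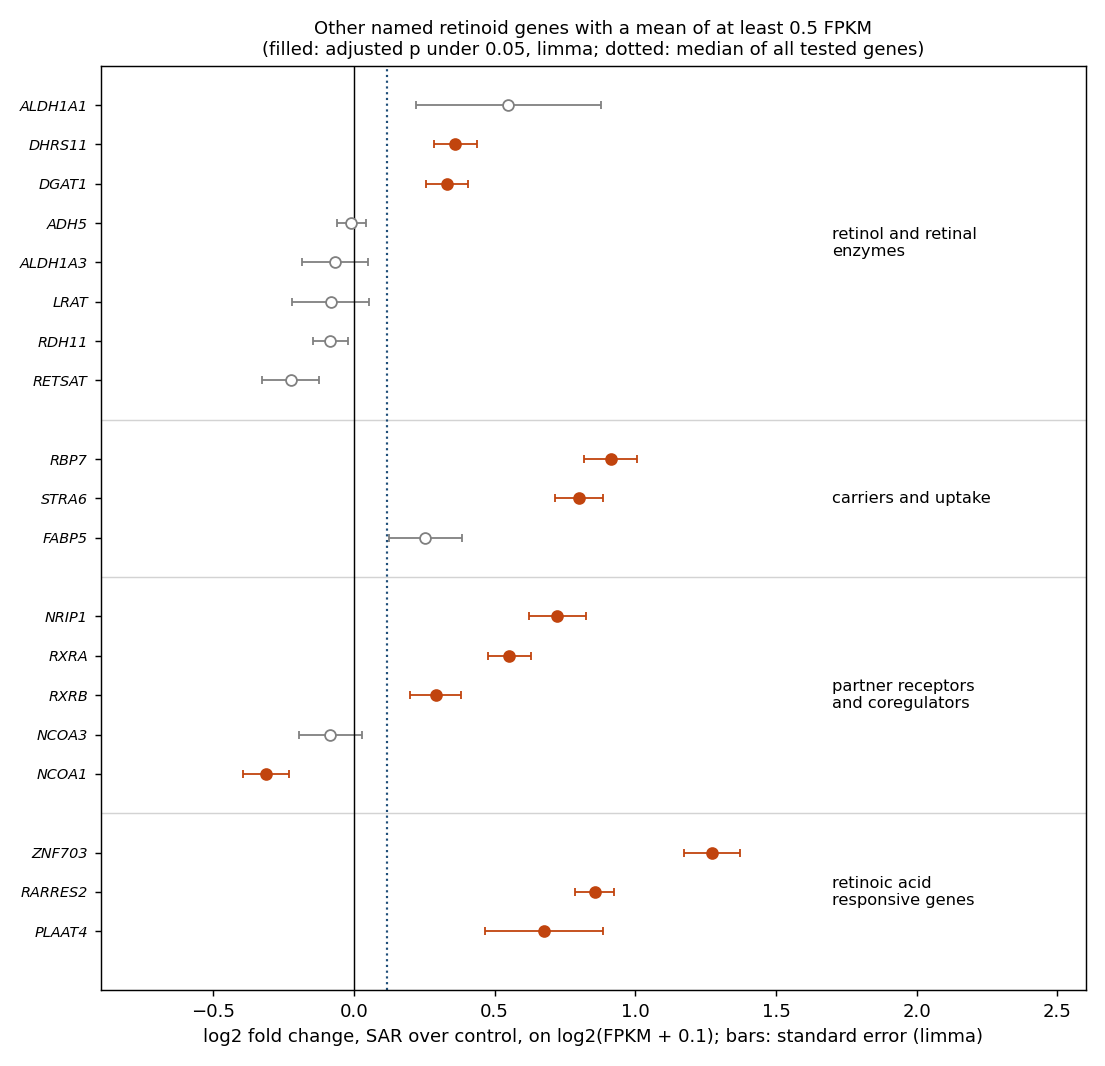
Log2 fold change, SAR over control, with its standard error from limma, for the genes of the 4 further retinoid lists that the text names and whose mean over the 6 libraries was at least 0.5 FPKM; filled points have an adjusted p-value under 0.05 and the dotted line is the median of all tested genes, 0.12. The enzymes lie between -0.22 and 0.55, STRA6 and RBP7 lie at 0.80 and 0.91, and ZNF703 is the point above 1, at 1.27.

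Genes known to respond to retinoic acid were mostly at very low levels, and the plot of the other retinoid genes holds ZNF703, RARRES2 and PLAAT4. Of 27 listed genes 26 had a row (HOXA4 was not analysed here), and 21 of these were under the minimum mean, none above 0.777 FPKM in any library. Of the 5 tested, 1 was upregulated and 5 were higher, beside 3.41% and 23.7% of all tested genes. After rescaling 4 of them were higher, beside 13.8% of all. This gives no count for the list as a whole, since a gene may reach the minimum through the group in which it is high. ZNF703, a transcriptional corepressor, was at 0.909, 0.901 and 0.847 FPKM in control and 2.37, 2.30 and 2.18 FPKM with SAR, a log2 fold change of 1.27 (SE 0.101, adjusted p = 0.000578). RARRES2, which encodes chemerin, was at 18.9, 17.0 and 18.9 FPKM and at 31.1, 34.7 and 33.6 FPKM (0.86, adjusted p = 0.000615). PLAAT4, named after its values were seen, was at 0.619 ± 0.150 and 1.04 ± 0.123 FPKM (0.68, adjusted p = 0.0467), and did not pass after rescaling (adjusted p = 0.0772). Without control 1 it was 0.83 (adjusted p = 0.0333).

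Over all 26 genes the SAR libraries lay above the control libraries in 11 and below in 0. Beside these stand 19.1% and 8.56% of all genes, and 35.5% and 15.2% of tested genes. Of the 26, 13 were listed at 0 in some library. The summed level was 26.2 to 30.2 FPKM in control and 48.4 to 50.9 FPKM with SAR, most of it RARRES2. In the fit without a minimum mean, CDX1 and CDX2, homeobox genes of posterior patterning, were upregulated with ZNF703. These were 3 of the 26, beside 1.56% of all 40396 genes. CDX1 was at 0.206, 0.0461 and 0.119 FPKM in control and 0.777, 0.565 and 0.582 FPKM with SAR (1.78, adjusted p = 0.0268, and 2.04 without control 1, adjusted p = 0.0259). Its reads were 8, 2 and 4 in control and 23, 17 and 19 with SAR. CDX2 was at 0 to 0.0233 FPKM in control and at 0.460, 0.302 and 0.170 FPKM with SAR (1.82, adjusted p = 0.0250), a call lost without control 1 (1.82, adjusted p = 0.0556). Its reads were 1, 2 and 0 in control and 27, 18 and 11 with SAR, so both fold changes rest on few control reads. HOXB1, a target of the receptors, overlapped at 0 to 0.0735 FPKM in control and 0.0656 to 0.121 FPKM with SAR (adjusted p = 0.425, and 0.248 without control 1). The trunk and posterior genes HOXA5, HOXB4 and HOXB5 did not exceed 0.0796 FPKM in any library. CDX1, CDX2 and the HOX genes were named after their values were seen.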

How the data were processed

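Total RNA of 3 control and 3 SAR samples was poly(A)-selected and sequenced as paired-end reads, and the authors deposited FPKM per Ensembl gene, 1 column per library and without pooling. The submitters' processing notes name HISAT2, featureCounts, Subread, DESeq2 and GRCh38.p13. Versions, annotation release and strand setting are not given in the sources used here, so antisense and overlapping genes are named as limits. FPKM carry no scaling between libraries beyond the total.

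FPKM are not counts, so limma 3.58.1 in R 4.3.3 (lmFit, eBayes with intensity trend) was fitted on log2(FPKM + 0.1) to 16371 genes, those whose mean over the 6 libraries reached 0.5 FPKM, with Benjamini-Hochberg adjustment of two-sided p-values over all of them and the study's thresholds. The added 0.1 understates changes of low genes. Whole reads were recovered from the steps of the FPKM for 40395 of 40396 genes (within 0.01 reads). The GENCODE 29 exon length gave whole reads for 57.2% of genes. For the others recovered, ALDH1A2, CYP26B1 and DHRS3 among them, the shortest length that gave whole reads was used. Read intervals cover counting error only. Gene positions are from GENCODE 29 on GRCh38. Symbols were matched for 30235 of 40396 IDs. The test was also run on simulated data with planted changes larger than those of the member genes tested, so that run does not check their calls. Sums, shares and plots used Python 3.11.15, pandas 2.3.3, numpy 2.4.6, scipy 1.17.1 and matplotlib 3.10.9.

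The 10 genes, the other lists, the markers and the naming rule were chosen with earlier results of these data known. The rule named all 10 genes, the upregulated, downregulated and 3 most abundant genes of each other list, and the 3 genes most like the member with the smallest adjusted p-value. Some genes that it names are not reported here. Others are said to be named after their values were seen. Alternatives were other pseudocounts, minimum means and scalings, no intensity trend, a replicate block, limma-voom on the recovered reads and each library left out. For ALDH1A2 and CYP26B1, leaving out libraries and rescaling without the minimum mean were added after seeing the data, as were leaving out control 1 for other low genes and marker sums without 1 gene.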

Additional observations from a re-analysis of the deposited data

How the results depend on the processing

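The number of upregulated genes among the 10, which was 1, was 0 with a pseudocount of 1, with median-ratio rescaling and with quantile normalization, where the fold change of RARB came under 2, and 2 without a minimum mean, where ALDH1A2 joined. Retinoic acid responsive genes numbered 0 with a pseudocount of 1 and 3 without a minimum mean, against 1. Over all tested genes, 559 were upregulated and 259 downregulated, against 169 and 141 with a pseudocount of 1, 340 and 409 with quantile normalization, 403 and 362 with rescaling, and 369 upregulated with a minimum mean of 1 FPKM. Left-out libraries gave 440 to 722 upregulated and 215 to 338 downregulated genes.

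Signs turned without control 1 for RDH10 (0.054) and RARA (0.056) and, without the minimum mean, for CYP26B1 (0.320), without SAR 1 for CYP26B1 (0.015) and without SAR 2 for RARA (0.028), with no call on either side. Over left-out libraries RDH10 lay between -0.090 and 0.054, RARA between -0.068 and 0.056, and CYP26B1 between -0.336 and 0.320. The calls of CYP26A1, CRABP1, CRABP2 and RARB by adjusted p-value held in all 15 alternatives, and that of DHRS3 was also lost without a minimum mean (adjusted p = 0.0612) and with quantile normalization (0.0706).

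No pairing by replicate number was detectable, as same-numbered samples deviated together with r = 0.0729, 0.00286 and 0.0247. These values cannot tell whether same-numbered libraries shared a culture or batch. With a replicate block, the member calls stayed at 1 upregulated, 4 higher and 1 lower, and all tested genes at 546 upregulated and 274 downregulated.

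With 3 libraries per group and 3 to 33 reads per control library, ALDH1A2 and CYP26B1 were limited by depth.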
